A study of Mus musculus with 23 samples.

Results

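The comparison set 17 injured uterine horns against 6 SHAM horns, out of 23 endometrial RNA libraries of mice in all, gene by gene across the transcriptome. The injured group held every library whose title begins with PBS (5 horns), HG (6 horns) or HG+ORG (6 horns), pooled by title alone, so no measured value entered the choice. All horns came from female C57BL/6 mice, with no engineered allele named in the labels. The endometrium, the lining of the uterus, was damaged with 70° ethanol in the PBS, HG and HG+ORG horns. After 4 days these horns were injected with phosphate-buffered saline (PBS), with a hydrogel (HG), or with the hydrogel carrying human endometrial organoids (HG+ORG), small epithelial structures grown in culture. Tissue was taken 2 weeks after the injection. The labels do not state what was done to the SHAM horns, so damage, injection and time cannot be told apart in this contrast, and the pooled group mixes 3 treatments. The 23 horns came from at most 21 mice and the labels do not tie horns to animals, so some horns share an animal and are not independent, which the p-values do not take into account. Endometrium was pressed out of each horn, its poly(A) RNA was sequenced as single-end reads, and reads were counted per gene.

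The endometrium is a simple epithelium with glands on a vascular stroma, and it lies on the smooth muscle of the myometrium. After damage the epithelium grows back while macrophages clear debris and secrete proteases and fibroblasts lay down collagen. B cells mature into plasma cells, which secrete antibodies, and plasma cells in the endometrial stroma are the histological sign of chronic endometritis in women. Every cell also runs a circadian clock, in which the CLOCK and ARNTL proteins switch on the Per, Cry, Nr1d, Dbp, Tef and Ciart genes, and their products feed back on it.

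Total counts per library ran from 8259351 to 14902952 in injured horns and from 7920918 to 14688135 in SHAM horns. Levels below are log2 CPM, read counts relative to the TMM-scaled library total, computed with a prior count of 2, and a run of 3 levels gives the lowest, the median and the highest horn of a group. A gene with no read has a level of -2.66. Fitted folds are edgeR's log2 values of mean counts, injured over SHAM, so 1 horn with a very high level can carry them. HG+ORG replicate 18 stood apart, with an epithelium score (the mean log2 CPM of 16 epithelial genes) of 5.91, against 7.69 or more in each other horn, and a macrophage score of 8.87, against 5.59 or less. SHAM replicate 3 had a cell cycle score of 0.27, where the other SHAM horns were at 5.88 or more. HG+ORG replicate 21 was low too, at 1.18, where the other injured horns were at 4.36 or more. SHAM replicates 5 and 6 were the closest pair of libraries within a group, with a chi-square of 2.76 per degree of freedom against 16.5 for the next pair, and were kept as separate horns.

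Epithelial markers were abundant in each horn and summed to 700, 5220 and 9160 CPM in injured horns and 4530, 5662 and 9899 CPM in SHAM horns. The lowest was HG+ORG replicate 18. Smooth muscle markers summed to 1.68, 167 and 2945 CPM in injured horns and 24.4, 47.6 and 90 CPM in SHAM horns, and 9 of 17 injured horns lay above each SHAM horn. Fat markers summed to 0, 0.492 and 2678 CPM in injured horns and 0, 52 and 443 CPM in SHAM horns, with each of the 4 at 0 counts in some SHAM horns. In bulk tissue, fewer cells of a type and less RNA per cell cannot be told apart.

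The genes of smallest p or largest fold on the higher side included antibody genes (Igkc, Jchain, Iglc2), macrophage genes (Mmp12, Gpnmb, Cd5l) and the clock output gene Tef, but no single gene passed edgeR's test. By edgeR's quasi-likelihood test 0 of 17394 genes had an adjusted p under 0.05 (0.0%), and the smallest was 0.534. Without HG+ORG replicate 18, 0 of 17334 genes passed (0.0%), with a smallest adjusted p of 0.613. At an unadjusted p under 0.05 there were 1331 genes on the higher side (7.65% of those tested) and 265 on the lower side (1.52%), and without replicate 18 there were 1014 (5.85%) and 394 (2.27%). With the smooth muscle score as a covariate, 0 genes passed (0.0%), with 474 higher (2.73%) and 330 lower (1.9%) at an unadjusted p under 0.05. DESeq2 called 6 of 17240 genes (0.0348%), each with a fold above 0: Jchain, Igkc, Iglc2, Ighm, Mmp12 and Gpnmb. Jchain, Igkc, Iglc2 and Mmp12 had too few SHAM reads to be tested without their reads in injured horns. limma-voom with sample weights called 0 (0.0%), with 1428 genes higher (8.21%) and 1745 lower (10.0%) at an unadjusted p under 0.05. No gene had all 17 injured horns on 1 side of the SHAM range (0.0%), and the most was 15. An exact two-sided permutation rank-sum test on log2 CPM called 0 genes (0.0%), with 693 higher (3.98%) and 374 lower (2.15%) at an unadjusted p under 0.05.

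**Figure D1:**
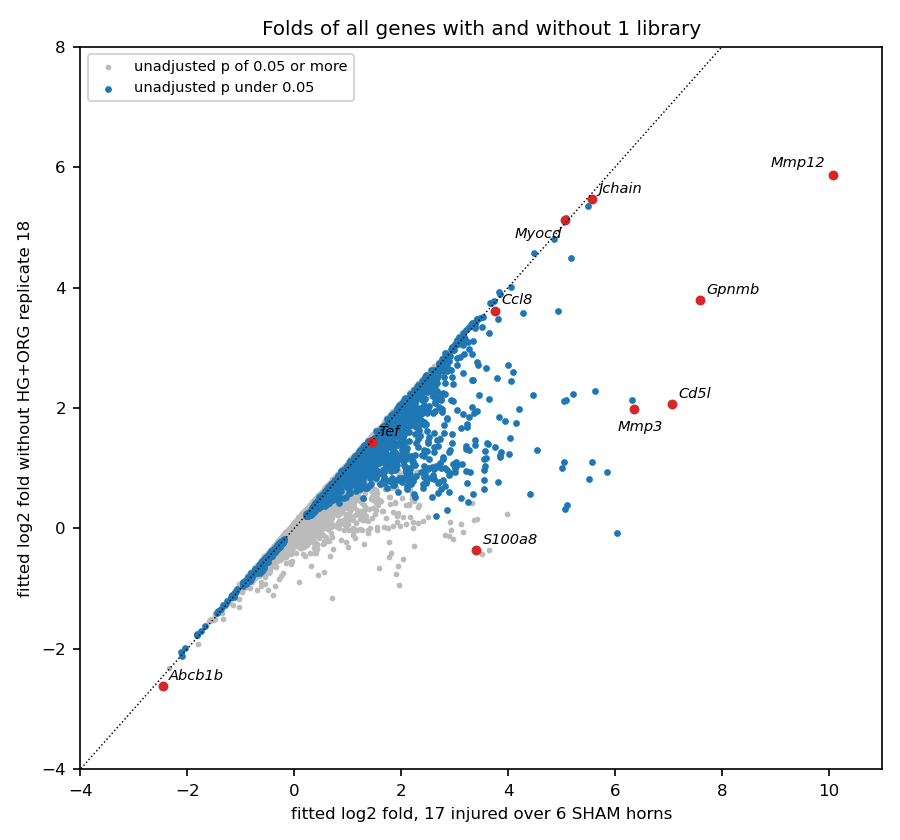
Each point is 1 of the genes tested, placed by its fitted log2 fold of injured over SHAM horns with all libraries (x axis) and without HG+ORG replicate 18 (y axis). Blue points had an unadjusted p under 0.05 with all libraries, and the dotted line marks equal folds. Jchain, Myocd, Ccl8 and Tef lie near the line, while Mmp12, Gpnmb, Cd5l, Mmp3 and S100a8 lie well below it.

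The plot of folds with and without that library separates large folds that 1 horn carried from those that it did not. S100a8, a calcium-binding protein of neutrophils, had a fitted log2 fold of 3.41 with all horns and -0.36 without it, whereas Jchain had 5.57 and 5.47.

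Antibody genes had the highest list median in the contrast. Of 10 genes taken as markers of B and plasma cells, 6 were tested, and 5 of these had an unadjusted p under 0.05 on the higher side, where 7.65% of all genes did. The median log2 fold of the 6 was 4.17, against 0.04 over all genes tested, and 2.57 by limma-voom. Without HG+ORG replicate 18 only 5 of them were tested, with a median of 4.81. Members with few reads in SHAM horns entered the test only through their injured horns, so the 6 do not stand for the whole list. These were Jchain, Iglc2 and Pou2af1, with at most 6, 2 and 1 reads in any SHAM horn, and Igkc, with 1 to 23 reads in SHAM horns. The count and the median therefore describe the members that passed the filter and support nothing about the list. For these members the count was 5 of 6 by limma-voom, 5 of 6 with the smooth muscle covariate and 4 to 5 in the 23 fits that each left out 1 horn. All of these fits share that filter, so they do not lift this limit.

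Igkc, the constant region of the kappa antibody chain, was at -2.15, 3.78 and 7.31 log2 CPM in injured horns, against -1.83, -0.48 and 0.78 in SHAM horns. It was above the highest SHAM horn in 12 of 17 injured horns, made up of 3 of 5 PBS, 5 of 6 HG and 4 of 6 HG+ORG horns, while the remaining injured horns overlapped with SHAM or, in PBS replicate 8, lay below it. At least 12 injured horns lay above the SHAM range for 1.13% of all genes, and at least 9 for 7.25%. Its fitted log2 fold was 5.49 (SE 1.43, unadjusted p = 0.000796), and 5.36 without HG+ORG replicate 18. Jchain, which joins antibody units into the secreted forms of mucosal surfaces, was at -2.66, 1.97 and 5.92 log2 CPM in injured horns, against -2.66, -1.20 and -0.83 in SHAM horns. It was above the SHAM range in 14 of 17 injured horns, including 6 of 6 HG+ORG horns, and at least 14 horns did so for 0.23% of all genes. The fitted log2 fold of Jchain was 5.57 (SE 1.47, unadjusted p = 0.000921). Igkc and Jchain both passed the filter only through injured horns, so their p-values and horns above SHAM are descriptive only.

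The mu heavy chain gene Ighm was at 0.65, 4.88 and 8.33 log2 CPM in injured horns, against 1.46, 2.44 and 3.11 in SHAM horns. Its 13 horns above the SHAM range and 2 below it show the same split among injured horns. Iglc2, a lambda chain constant gene, had a fitted log2 fold of 4.86 (SE 1.35, unadjusted p = 0.00147), but 3 of 6 SHAM horns had no Iglc2 read, so its size rests on few counts. Pou2af1, a B cell coactivator of antibody gene transcription, was at -2.66, -0.97 and 1.21 log2 CPM in injured horns, against -2.66, -2.14 and -1.96 in SHAM horns, and 13 injured horns were above the SHAM range. Cd79b, a chain of the B cell receptor complex, was the exception of the list, at -0.60, 2.59 and 4.28 log2 CPM in injured horns, against 2.03, 2.36 and 4.05 in SHAM horns, with a fitted log2 fold of -0.03. By DESeq2 Jchain (adjusted p = 0.000178) and Igkc (adjusted p = 5.93e-05) were called in 23 of the 23 fits that each left out 1 horn. Ighm was called in 20 of them and Iglc2 in 12. Jchain, Igkc and Iglc2 entered these fits only through injured horns, so their calls are descriptive only. Near-identical antibody genes may share reads, so the values of single chains are uncertain.

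**Figure D2:**
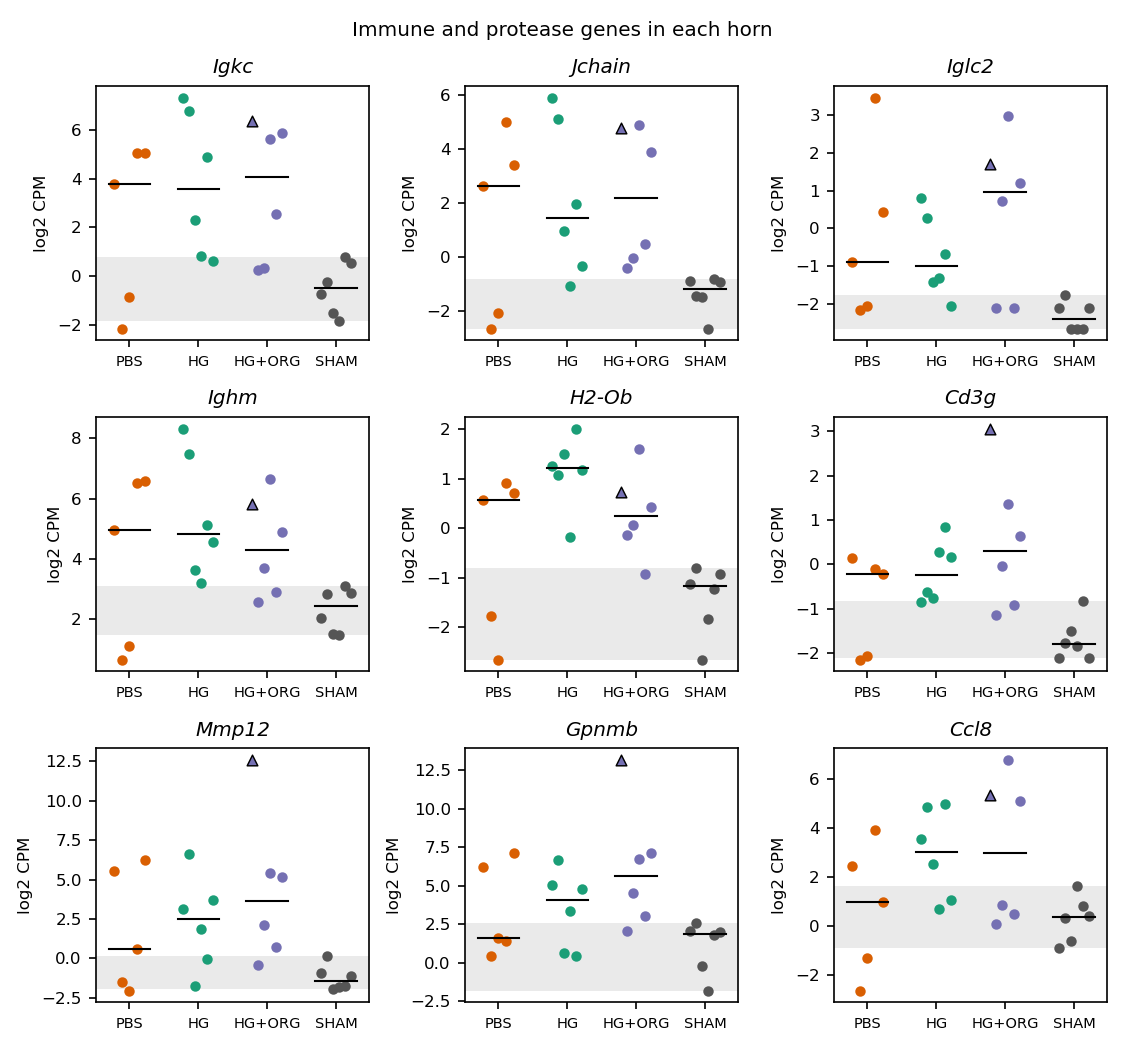
Level of 9 immune and protease genes in each horn, in log2 CPM (y axis), by group (x axis), with the group median as a bar and HG+ORG replicate 18 as an outlined triangle. The grey band spans the 6 SHAM horns. In the antibody genes PBS replicates 8 and 9 lie low while most other injured horns lie above the band.

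As the plot of immune genes by horn shows, PBS replicates 8 and 9 were at -2.66 and -2.07 for Jchain, and HG replicates 12 and 13 held the 2 highest levels, 5.92 and 5.14. The score of the list, its mean log2 CPM, was -1.38, 1.87 and 4.39 in injured horns, against -0.72, -0.15 and 0.05 in SHAM horns. It exceeded each SHAM horn in 15 of 17 injured horns, all but PBS replicates 8 and 9. The score averages only the members that passed the filter, most of them through injured horns. Its separation from SHAM is therefore descriptive only.

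H2-Ob, the beta chain of a molecule that tunes peptide loading onto MHC class II in B cells, was at -2.66, 0.71 and 2.01 log2 CPM in injured horns, against -2.66, -1.17 and -0.81 in SHAM horns. It lay above all SHAM horns in 14 of 17 injured horns, among them 6 of 6 HG horns. The fitted log2 fold was 2.51 (SE 0.68, unadjusted p = 0.00121) and 2.52 without HG+ORG replicate 18. No SHAM horn had more than 6 H2-Ob reads, so the gene could enter the test only through injured horns. Its p-value and its horns above SHAM are therefore descriptive only. Genes of MHC class II presentation to helper T cells, which include Cd74, Ciita and the H2-DM chains besides the presenting molecules, were listed apart, with 2 of 7 members at an unadjusted p under 0.05 and a median log2 fold of 0.85 (1.34 without SHAM replicate 2). The count was 0 without SHAM replicate 3 or 4 and 0 by limma-voom. H2-Aa was at 2.55, 6.40 and 8.62 log2 CPM in injured horns, against 2.82, 5.45 and 6.30 in SHAM horns, and 9 injured horns were above the SHAM range.

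Among T and NK cell genes 5 of 11 tested had an unadjusted p under 0.05 on the higher side, where 7.65% of all genes did. The median log2 fold of the 11 was 1.17, and 1.10 without HG+ORG replicate 18. The count was 1 without SHAM replicate 1, 3 or 4, 2 with the smooth muscle covariate and 1 by limma-voom, where the median was 0.30. Cd3g, a chain of the T cell receptor complex, was at -2.15, -0.10 and 3.06 log2 CPM in injured horns, against -2.11, -1.79 and -0.83 in SHAM horns. It stood above each SHAM horn in 12 of 17 injured horns and had a fitted log2 fold of 2.74 (SE 0.83, unadjusted p = 0.00312), or 2.14 without replicate 18. With at most 6 reads in any SHAM horn, Cd3g too could enter the test only through injured horns, so these values are descriptive only.

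Macrophage genes had higher fitted folds with all horns, and 1 horn held a large part of them. Of 16 genes, 16 had a fold above 0, where 55.9% of all genes did. An unadjusted p under 0.05 on the higher side was found in 12, against 7.65% of all genes. The median log2 fold was 2.10 with all horns and 1.01 without HG+ORG replicate 18, where 13 of 16 folds were above 0 and 7 members were under 0.05. The count was also 7 without SHAM replicate 3 or 4, and 2 with the smooth muscle covariate. By limma-voom 2 of 16 were under 0.05, with a median of 0.50.

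Mmp12, the macrophage elastase, had the largest fold named here. Its level was -2.07, 2.11 and 12.62 log2 CPM in injured horns, against -1.96, -1.46 and 0.16 in SHAM horns. Above the SHAM range were 3 of 5 PBS, 4 of 6 HG and 5 of 6 HG+ORG horns, and the highest level was that of HG+ORG replicate 18. By edgeR the log2 fold was 10.09 (SE 3.02) with all horns and 5.87 (SE 1.58) without that horn, at unadjusted p-values of 0.00282 and 0.00115. DESeq2 called Mmp12 in 23 of 23 fits that left out 1 horn, with smaller log2 folds of its own, from 5.46 to 6.58. With at most 14 reads in any SHAM horn, Mmp12 could enter these tests only through injured horns. Its p-values, calls and horns above SHAM are therefore descriptive only.

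Gpnmb, a lysosomal glycoprotein of lipid-laden macrophages, was at 0.41, 4.53 and 13.19 log2 CPM in injured horns, against -1.83, 1.89 and 2.60 in SHAM horns. It was above the SHAM range in 11 of 17 injured horns. By edgeR the fitted log2 fold was 7.60 (SE 2.44) with all horns and 3.79 without HG+ORG replicate 18. DESeq2 called Gpnmb in 13 of 23 fits that left out 1 horn, and its own log2 folds in these fits ran from 3.51 to 4.07. Lyz2, a lysozyme of phagocytes, was above the SHAM range in 12 horns, at 4.93, 7.58 and 13.90 log2 CPM in injured horns, against 3.93, 6.14 and 6.62 in SHAM horns. Adgre1, which encodes the F4/80 antigen, was at 0.38, 4.07 and 7.44 log2 CPM in injured horns, against 0.88, 2.79 and 3.73 in SHAM horns, with a fitted log2 fold of 2.01 (SE 0.75) and 1.38 without replicate 18. The complement genes C1qa, C1qb and C1qc, made by tissue macrophages, had fitted log2 folds of 1.96, 2.42 and 2.20, and of 1.17, 1.20 and 1.11 without it.

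Cd5l and Mmp3 had a large part of their folds from the same horn. Cd5l, a secreted scavenger protein of macrophages, was at -2.66, 0.27 and 9.32 log2 CPM in injured horns, against -1.83, -1.18 and -0.65 in SHAM horns, and Mmp3, the protease stromelysin 1, was at -2.66, 0.17 and 9.16 log2 CPM in injured horns, against -2.66, -1.14 and 0.53 in SHAM horns. Their fitted log2 folds were 7.07 and 6.36 with all horns, against 2.07 and 1.99 without HG+ORG replicate 18. With at most 7 and 13 reads in any SHAM horn, both could enter the test only through injured horns, so these values are descriptive only. Neutrophil genes had a median log2 fold of 1.14 over 7 genes tested, which was -0.28 without HG+ORG replicate 18 and 2.97 without SHAM replicate 2, and 0 had an unadjusted p under 0.05.

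Cytokine and chemokine genes differed in how far HG+ORG replicate 18 set their folds. Ccl8, a chemokine that draws monocytes, was at -2.66, 2.46 and 6.81 log2 CPM in injured horns, against -0.90, 0.37 and 1.64 in SHAM horns. It exceeded each SHAM horn in 2 of 5 PBS, 4 of 6 HG and 3 of 6 HG+ORG horns, and PBS replicates 8 and 9 lay below it. By edgeR the log2 fold was 3.76 (SE 1.27, unadjusted p = 0.00687) and 3.62 without replicate 18. Ccl12 and Ccl7, of the same family, had fitted log2 folds of 2.82 (SE 0.96) and 4.00 (SE 1.40), and of 2.76 and 2.72 without it. The folds of Ccl3 and Ccl4, chemokines of activated macrophages, were 5.52 and 5.02 with that horn and 0.82 and 1.00 without it. Over 19 cytokine and chemokine genes 8 had an unadjusted p under 0.05 on the higher side, where 7.65% of all genes did. The median log2 fold of the 19 was 1.95, which was 0.97 without HG+ORG replicate 18 and 3.06 without SHAM replicate 2. The number under 0.05 ran from 5 without HG+ORG replicate 18 to 11 without SHAM replicate 2, and was 2 by limma-voom. Ccl12, with at most 13 reads in any SHAM horn, could enter the test only through injured horns.

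The mast cell proteases had few reads. Cpa3, the carboxypeptidase of mast cell granules, was at -2.66, -1.19 and 1.43 log2 CPM in injured horns, against -2.66, -2.40 and -1.96 in SHAM horns, with no read in 3 of 6 SHAM horns and 11 injured horns above the SHAM range. The fit gave a log2 fold of 3.68 (SE 1.24) and 3.74 without HG+ORG replicate 18. Of 7 mast cell and eosinophil genes tested 3 had an unadjusted p under 0.05 (Cpa3, Cma1 and Tpsb2), a count that was 0 without PBS replicate 7, HG replicate 12 or HG replicate 13. These 3 genes had so few SHAM reads that they could enter the test only through injured horns, so the count supports nothing about the list.

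Red cell genes had an unadjusted p under 0.05 on the higher side in 5 of 5 tested, where 7.65% of all genes did. Their median log2 fold was 2.15 (3.26 without SHAM replicate 2). Hbb-bt, a beta globin of adult red cells, was at -1.23, 3.69 and 6.87 log2 CPM in injured horns, against -0.62, 1.73 and 3.94 in SHAM horns. It lay above all SHAM horns in 7 of 17 injured horns and its fitted log2 fold was 2.67 (SE 1.00, unadjusted p = 0.0136). At least 9 horns did so for 7.25% of all genes, and 7 or more did for a larger share. The count of red cell genes under 0.05 was 0 with the smooth muscle covariate and 3 without SHAM replicate 1, 3, 4, 5 or 6. The share of blood left in the tissue was not tested. The globin genes are near-identical copies, so their single values are uncertain.

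**Figure D3:**
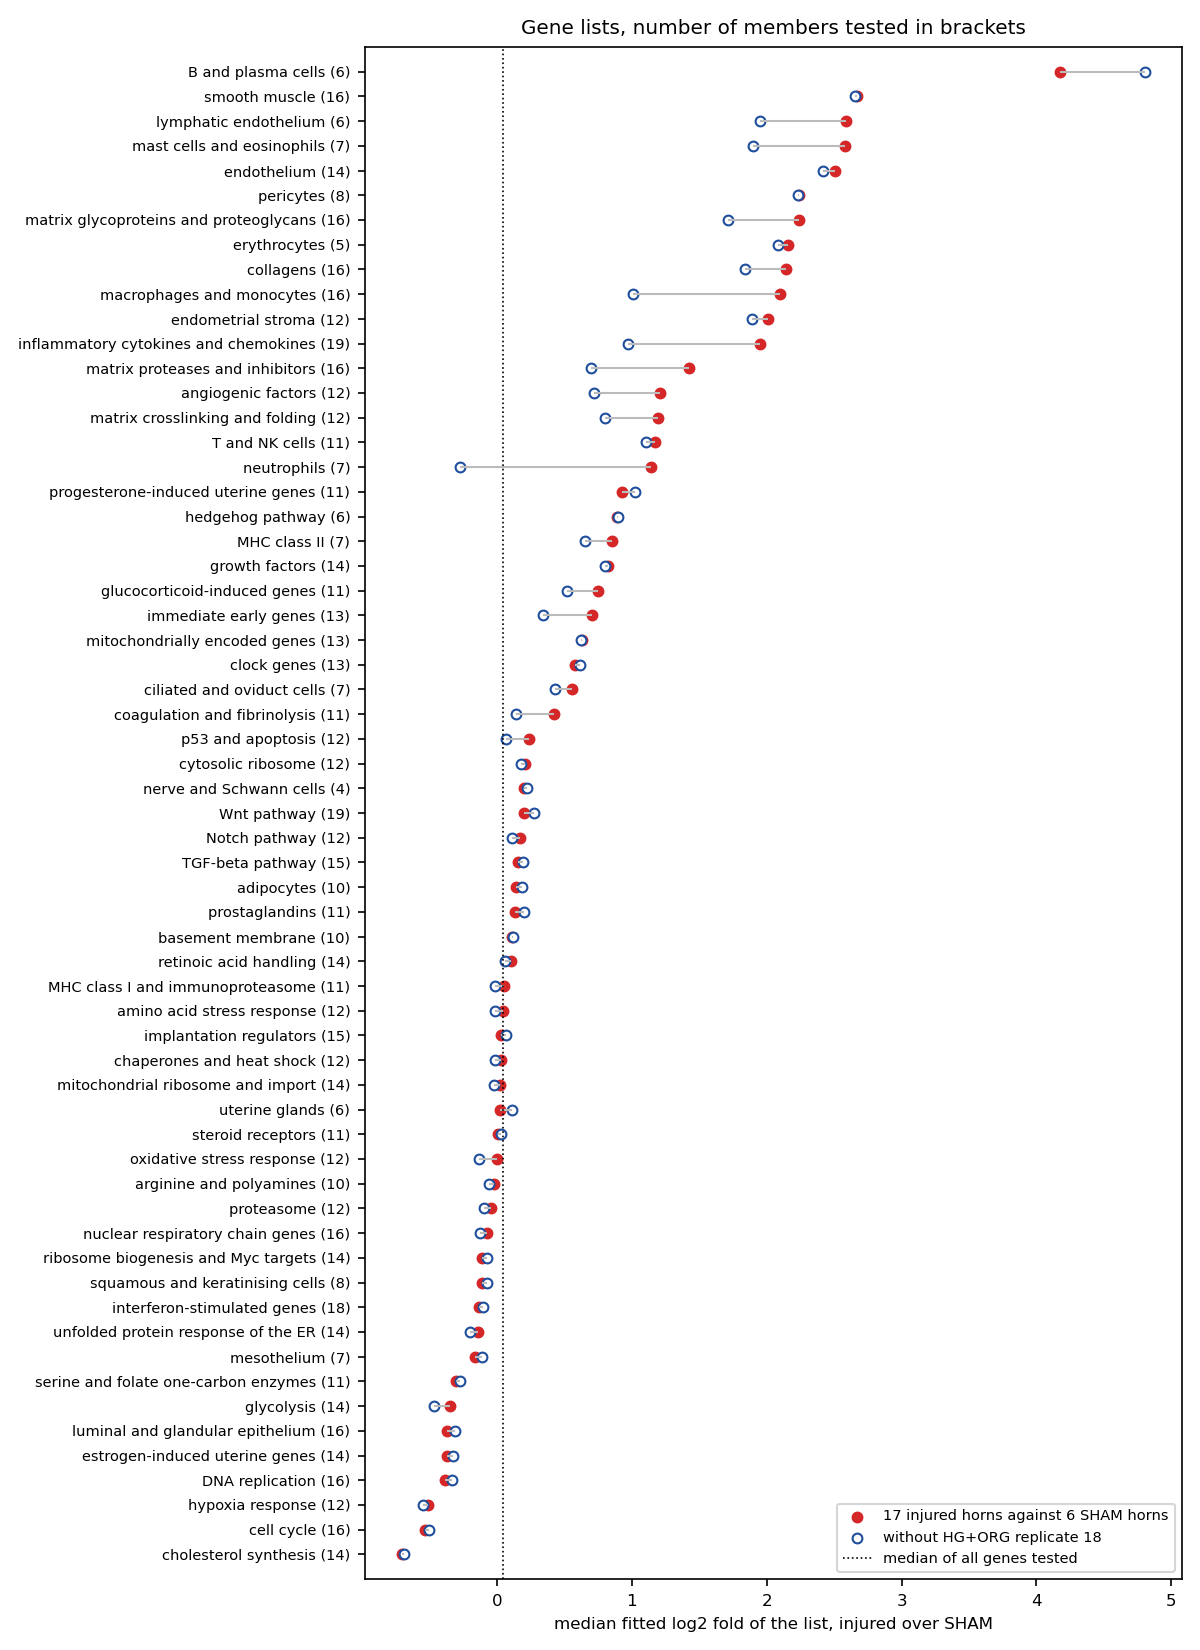
Median fitted log2 fold (x axis) of the tested members of each gene list (y axis), injured over SHAM, with all 23 libraries (red) and without HG+ORG replicate 18 (open blue). The dotted line is the median of all genes tested, 0.04. B and plasma cells lie furthest right at 4.17, the neutrophil median moves to -0.28, and cholesterol synthesis lies furthest left at -0.71.

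Smooth muscle, vessel and stromal genes formed a second block in the plot of list medians. Of 16 smooth muscle genes 15 had an unadjusted p under 0.05 on the higher side, where 7.65% of all genes did, with a list median log2 fold of 2.67. In the other lists, 10 of 14 endothelial genes did so (2.51), 6 of 6 lymphatic genes (2.59), 2 of 8 pericyte genes (2.24) and 3 of 12 stromal genes (2.01). By limma-voom, which weights horns by quality, the counts were 1, 0, 0, 0 and 0 in the same order, and the medians 0.93, 0.15, 0.65, -0.10 and -0.16. With the smooth muscle score as a covariate the counts of the vessel, pericyte and stromal lists were 0, 0, 0 and 0. The smooth muscle list itself was not read in that fit, since the covariate is its own mean. In fits that left out 1 horn the counts ran over 11 to 15, 4 to 12, 2 to 6, 0 to 5 and 1 to 5. The fewest were without SHAM replicate 1 in each of these lists, in some also without SHAM replicate 3, 4 or 6 or HG replicate 14 or 16. The lists include members such as Myocd, Kcnmb1 and Reln, with at most 1, 7 and 10 reads in any SHAM horn. Such members could enter the test only through injured horns, so the counts are descriptive only.

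Myocd, the coactivator that switches on contractile genes, was at -2.66, -0.78 and 2.65 log2 CPM in injured horns, against -2.66, -2.66 and -2.14 in SHAM horns. Above the SHAM range were 3 of 5 PBS, 5 of 6 HG and 4 of 6 HG+ORG horns, and 4 of 6 SHAM horns had no read. It had a fitted log2 fold of 5.07 (SE 1.56), resting on few SHAM counts, and could enter the test only through injured horns. Acta2, the actin of smooth muscle and of myofibroblasts, was at -1.02, 5.85 and 10.24 log2 CPM in injured horns, against 3.15, 4.18 and 5.12 in SHAM horns. The injured horns lay on both sides, 9 above the SHAM range and 4 below it, from PBS replicate 8 at -1.02 to HG replicate 16 at 10.24. Myh11, the smooth muscle myosin heavy chain, likewise had 9 horns above and 5 below, at -0.79, 4.12 and 9.39 log2 CPM in injured horns, against 2.52, 3.05 and 4.04 in SHAM horns. Its fitted log2 fold was 3.32 (SE 1.35, unadjusted p = 0.0219).

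Among vessel genes, Vwf, the clotting factor carrier of endothelium, was at 0.17, 3.62 and 5.98 log2 CPM in injured horns, against -0.37, 1.51 and 3.16 in SHAM horns. Of the injured horns 9 were above the SHAM range and 0 below it. The fit gave a log2 fold of 2.51 (SE 0.88, unadjusted p = 0.00913). Flt4, the receptor for lymphatic growth factors, was at -2.66, 2.38 and 4.79 log2 CPM in injured horns, against -0.13, 0.62 and 0.99 in SHAM horns, with 11 horns above the SHAM range and 3 below. Pecam1, an adhesion molecule of endothelium, had 10 above and 3 below and a fitted log2 fold of 2.66 (SE 1.07). Angiogenic factors had 4 of 12 members under 0.05 and a median of 1.21, or 0.72 without HG+ORG replicate 18, with Angpt2, which loosens vessel walls, at a fitted log2 fold of 2.09 (SE 0.78). Vegfa, the main endothelial growth factor, was at 5.45, 7.22 and 9.40 log2 CPM in injured horns, against 5.13, 7.22 and 8.95 in SHAM horns, with a fitted log2 fold of -0.05 (SE 0.50), or 0.52 without SHAM replicate 3.

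Fibrosis genes overlapped between the groups. Col1a1, a chain of the main fibrillar collagen, was at 0.88, 6.39 and 11.87 log2 CPM in injured horns, against 3.79, 6.22 and 7.42 in SHAM horns. The injured horns spread on both sides of the SHAM horns, from PBS replicate 9 to HG+ORG replicate 18, with 7 above their range and 2 below. It had a fitted log2 fold of 2.70 (SE 1.26, unadjusted p = 0.0424), 2.02 without HG+ORG replicate 18 and -0.09 by limma-voom, where the direction turned. Col3a1, the collagen of loose and healing stroma, was at 1.22, 7.50 and 12.03 log2 CPM in injured horns, against 4.26, 6.74 and 7.99 in SHAM horns and had 2.50 (SE 1.21, unadjusted p = 0.0496). Over 16 collagens 6 had an unadjusted p under 0.05 on the higher side, where 7.65% of all genes did, and the median log2 fold was 2.14. But the count was 0 without HG+ORG replicate 18 or SHAM replicate 2, 0 with the muscle covariate, and the median was -0.40 by limma-voom. The collagen score was 5.10 ± 2.12 in injured horns and 4.31 ± 1.00 in SHAM horns (SD), a difference smaller than the spread among injured horns.

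Matrix glycoproteins such as Bgn, Thbs2, Tnc and Fn1 had 9 of 16 members under 0.05 on the higher side, where 7.65% of all genes were, and a median of 2.24. The count was 5 to 12 in fits that left out 1 horn, the fewest without SHAM replicate 1, 2, 3 or 4 or HG+ORG replicate 18. It was 0 with the covariate. By limma-voom 0 were under 0.05 and the median was 0.05. Thbs2, a matrix protein that restrains vessel growth, was at 0.17, 2.55 and 8.00 log2 CPM in injured horns, against 1.31, 1.45 and 1.59 in SHAM horns. It was above the narrow SHAM range in 12 injured horns and below it in 5. In the TGF-beta pathway, the main driver of fibrosis, 4 of 15 members were under 0.05 and the median was 0.15, with 1 under 0.05 without SHAM replicate 1 or 3. That median was 0.50 without SHAM replicate 3, 0.23 without SHAM replicate 1, 0.06 without SHAM replicate 4 and 0.10 without HG replicate 16. Tgfb1 itself was at 2.50, 4.22 and 8.09 log2 CPM in injured horns, against 1.95, 3.58 and 4.26 in SHAM horns, with a fitted log2 fold of 1.44 (SE 0.71) and 0.49 without HG+ORG replicate 18, and Tgfb2 had 1.97 (SE 0.77) and 1.84.

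**Figure D4:**
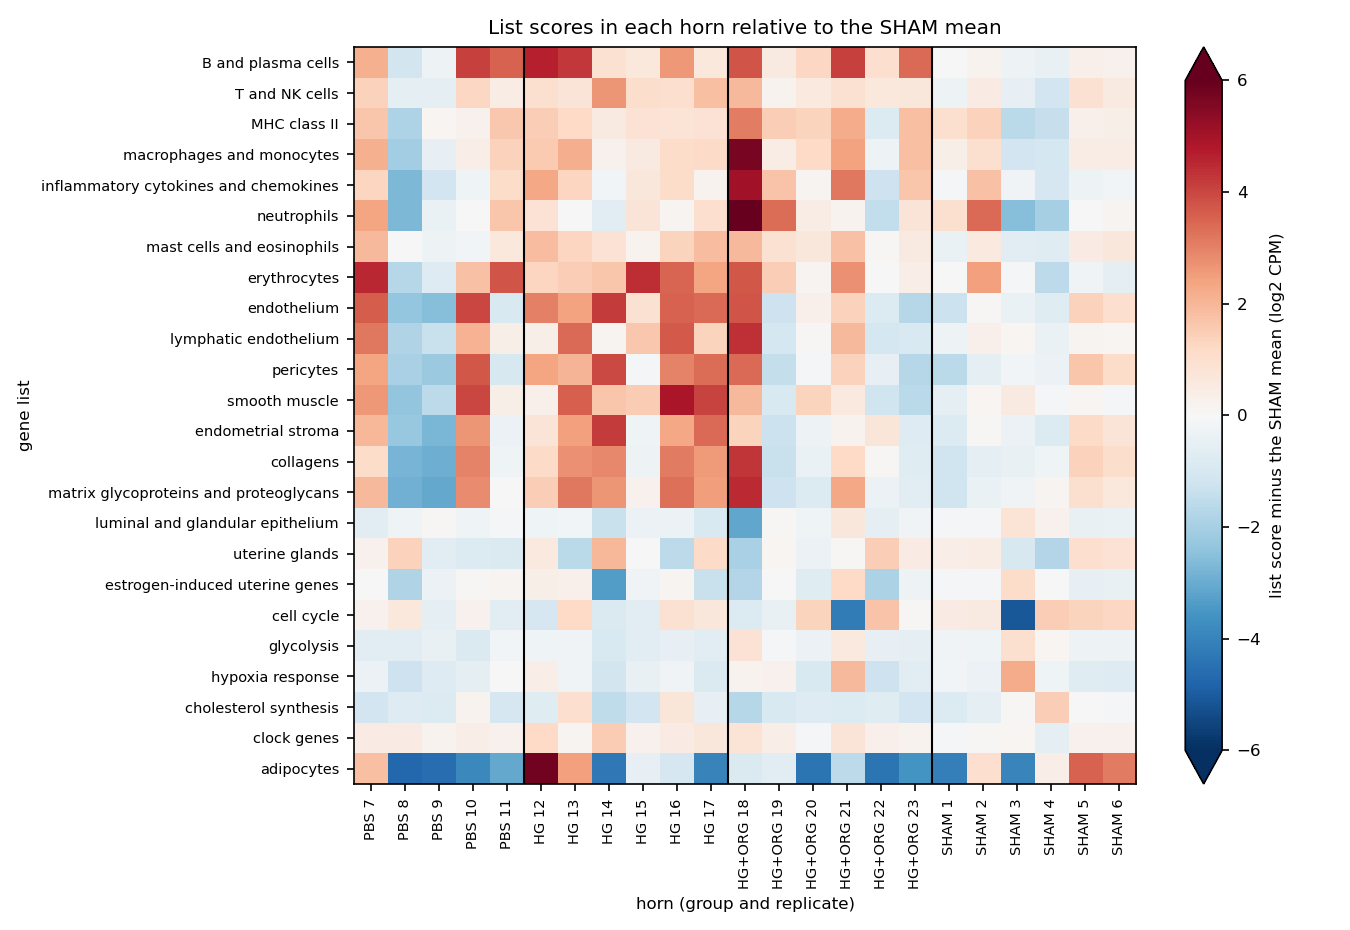
Score of each gene list (rows) in each horn (columns), averaged in log2 CPM over the list, minus the mean of the 6 SHAM horns. Red is above the SHAM mean and blue below it, and vertical lines separate PBS, HG, HG+ORG and SHAM. The muscle, vessel and matrix rows are red in most HG horns and in PBS replicates 7 and 10 and blue in PBS replicates 8 and 9, whereas the B and plasma cell row is red in most injured horns of all 3 groups. That last row averages only members that passed the filter, most of them through injured horns.

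The map of list scores shows how unevenly the block was spread among injured horns. PBS replicates 8 and 9 had smooth muscle scores of -0.16 and 0.63, below the SHAM range of 1.62 to 2.76, while HG replicates 16 and 17 had 7.11 and 6.25. Of 17 injured horns 10 were above the SHAM range and 5 below it, so 2 lay within.

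Among the 13 lists with 5 or more members under 0.05 on the higher side, clock genes were the only one with an unchanged count both with the smooth muscle covariate and without HG+ORG replicate 18. This does not set them apart from 2 other lists. The B and plasma cell count stayed at 5 with the covariate and was 4 without replicate 18, where only 5 of its 6 members were tested. The smooth muscle count stayed at 15 without replicate 18, and its own mean is the covariate. Of 13 clock genes 7 had an unadjusted p under 0.05 on the higher side, where 7.65% of all genes did, and 1 on the lower side, where 1.52% did. The lower one was Cry1, which was not under 0.05 without SHAM replicate 3. The median log2 fold was 0.58, with a range of 0.44 to 0.81 in fits that left out 1 horn. The count on the higher side was 3 without SHAM replicate 4, whose clock score was the lowest, 3.00. The sources used here do not give the hour at which tissue was taken, so a difference in collection time between groups cannot be told apart from injury.

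The promoters of 4 clock genes are shown because the D-box and E-box letters through which the clock is known to act could be read in them. Each window runs from 250 bases before to 50 bases after a start site, from RefSeq on build GRCm38.p6, an older build than that of the counts. Capitals mark CACGTG, the E-box bound by CLOCK and ARNTL, in Ciart, Tef and Cry1, and TTANGTAA on either strand, the D-box bound by DBP and TEF, in Per3. CACGTG reads the same on both strands, the letters of the 2 motifs cannot overlap, and for Tef 1 of its windows is shown.
Ciart at chr3:95882179-95882478, minus strand: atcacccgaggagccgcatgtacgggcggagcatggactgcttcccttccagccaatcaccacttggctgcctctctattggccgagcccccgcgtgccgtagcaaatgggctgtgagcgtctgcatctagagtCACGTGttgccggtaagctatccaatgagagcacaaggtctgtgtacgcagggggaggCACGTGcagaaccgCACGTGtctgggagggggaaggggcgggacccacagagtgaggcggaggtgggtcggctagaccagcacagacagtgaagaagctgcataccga
Tef at chr15:81802423-81802722, plus strand: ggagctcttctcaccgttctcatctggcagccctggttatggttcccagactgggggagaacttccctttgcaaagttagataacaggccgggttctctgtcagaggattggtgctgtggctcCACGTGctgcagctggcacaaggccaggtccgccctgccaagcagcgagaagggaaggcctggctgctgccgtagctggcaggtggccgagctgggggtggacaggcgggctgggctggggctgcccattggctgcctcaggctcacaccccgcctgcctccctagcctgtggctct
Cry1 at chr10:85185005-85185304, minus strand: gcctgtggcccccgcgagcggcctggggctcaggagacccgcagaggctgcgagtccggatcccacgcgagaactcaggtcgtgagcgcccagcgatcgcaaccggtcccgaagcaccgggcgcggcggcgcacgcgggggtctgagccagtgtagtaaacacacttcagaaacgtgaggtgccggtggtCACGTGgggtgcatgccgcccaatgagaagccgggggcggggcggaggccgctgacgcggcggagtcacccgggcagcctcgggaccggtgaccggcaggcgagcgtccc
Per3 at chr4:151044616-151044915, minus strand: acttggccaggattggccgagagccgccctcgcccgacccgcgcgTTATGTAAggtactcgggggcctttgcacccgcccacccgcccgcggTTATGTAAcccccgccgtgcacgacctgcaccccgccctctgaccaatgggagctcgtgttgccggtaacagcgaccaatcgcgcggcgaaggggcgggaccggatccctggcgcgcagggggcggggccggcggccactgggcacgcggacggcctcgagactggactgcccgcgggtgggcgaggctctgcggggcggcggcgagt
An E-box was found in 7.15% of the 32851 windows of all genes and in windows of 4 of the 12 clock genes with a window (33.3%), these being Ciart, Cry1, Per1 and Tef. A D-box was found in 2.32% of all windows and in 1 of the 12 clock genes (8.33%). The shares over all genes count windows, while a clock gene counts if any of its windows matches. The shares are therefore not like for like. The Ciart window held 3 E-boxes and the Per3 window 2 D-boxes. A match is a description of these letters, and says nothing on binding in these horns.

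Ciart, a repressor of CLOCK and ARNTL, was at -1.06, 0.27 and 3.61 log2 CPM in injured horns, against -0.92, -0.74 and 0.05 in SHAM horns. It stood above each SHAM horn in 15 of 17 injured horns, the most of any gene together with 3 others. Its fitted log2 fold was 1.84 (SE 0.62, unadjusted p = 0.00672) and 1.26 without HG+ORG replicate 18. At these low SHAM levels Ciart could enter the test only through injured horns, so its p-value and its horns above SHAM are descriptive only. It is among the clock genes counted above. Tef, a transcription factor of the D-box, was at 2.88, 4.27 and 6.11 log2 CPM in injured horns, against 2.08, 2.96 and 3.89 in SHAM horns. Above the SHAM range were 4 of 5 PBS, 5 of 6 HG and 2 of 6 HG+ORG horns. The fitted log2 fold was 1.46 (SE 0.39, unadjusted p = 0.00114) and 1.43 without replicate 18. Dbp, its close relative, was at 1.53, 3.35 and 5.12 log2 CPM in injured horns, against 1.01, 2.54 and 2.75 in SHAM horns. It was above the SHAM range in 14 horns, among them 5 of 5 PBS horns.

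The fitted log2 fold of Dbp was 1.21 (SE 0.43, unadjusted p = 0.00914).

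Per1, Per3 and Cry2, repressors of the clock, had fitted log2 folds of 0.86 (SE 0.37), 0.57 (SE 0.25) and 0.72 (SE 0.29), and Nr1d2, a repressor of Arntl, had 0.43 (SE 0.18). Cry1, the other cryptochrome, was on the lower side, at 3.61, 4.17 and 4.48 log2 CPM in injured horns, against 4.10, 4.30 and 5.03 in SHAM horns, with 8 injured horns below the SHAM range and a fitted log2 fold of -0.42 (SE 0.16, unadjusted p = 0.014). At least 9 horns were below the SHAM range for 4.2% of all genes, and 8 or more for a larger share. The activators Arntl, Clock and Npas2 had -0.32, 0.11 and -0.18, with unadjusted p-values of 0.161, 0.588 and 0.673. Nr1d1 and Per2 had 0.96 (SE 0.59) and 0.58 (SE 0.34) and were not under 0.05 either. By limma-voom 5 of 13 were higher at an unadjusted p under 0.05, where 8.21% of all genes were. None passed adjustment over all genes.

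**Figure D5:**
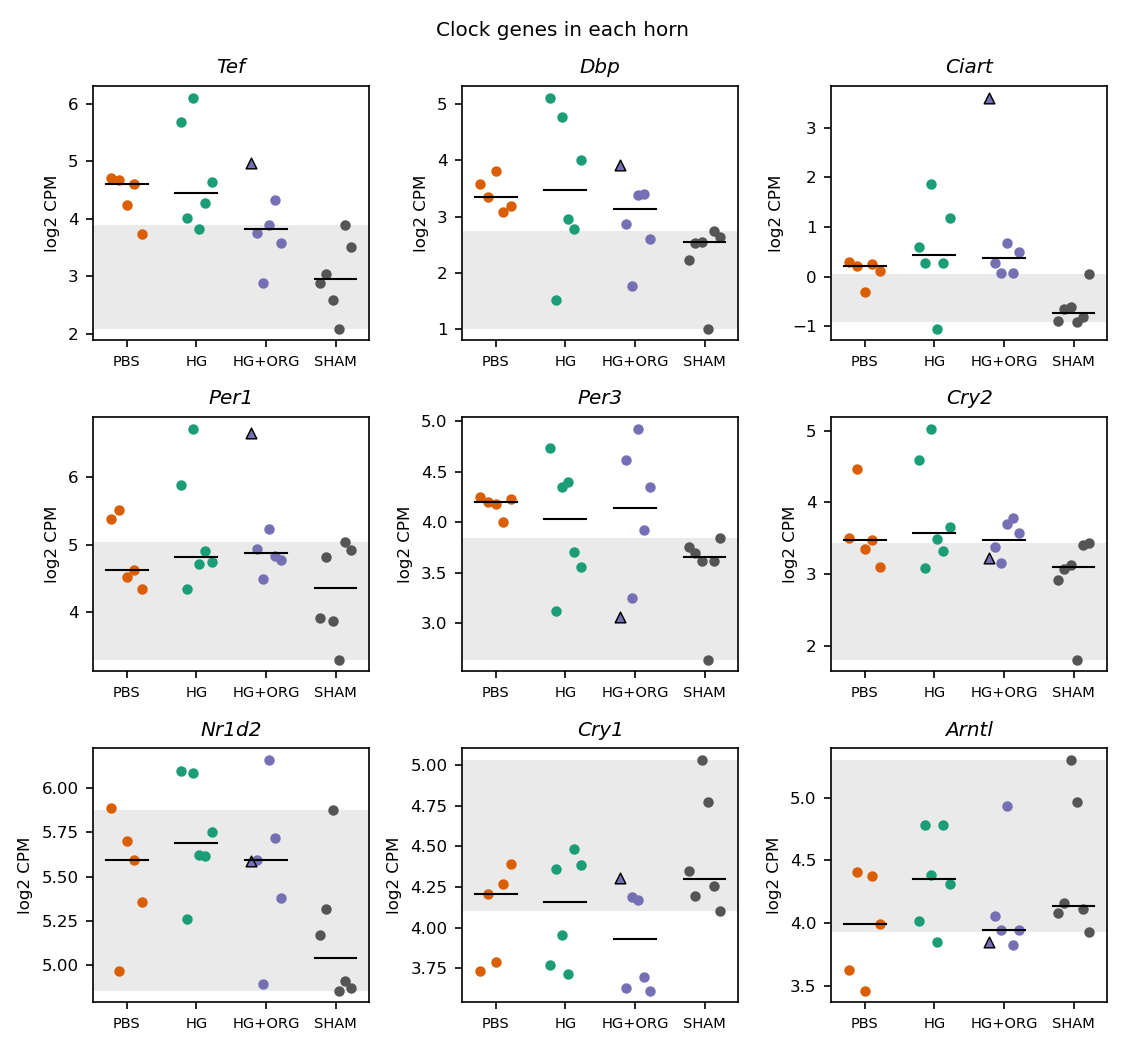
Level of 9 clock genes in each horn, in log2 CPM (y axis), by group (x axis), with the group median as a bar, the SHAM range as a grey band and HG+ORG replicate 18 as an outlined triangle. Dbp lies above the band in 5 of 5 PBS, 5 of 6 HG and 4 of 6 HG+ORG horns, while Arntl lies within or below it.

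In the plot of clock genes by horn the shift was small next to the spread of the SHAM horns for Per1 and Nr1d2, and wider for Tef, Dbp and Ciart. Glucocorticoid-induced genes, to which Per1 also belongs, had 3 of 11 members under 0.05 and a median of 0.75, with 1 under 0.05 without SHAM replicate 1, 3 or 4 and 0 by limma-voom. Zbtb16, a factor induced by steroid hormones, was at -2.07, 0.22 and 5.28 log2 CPM in injured horns, against -2.66, -0.73 and 0.48 in SHAM horns, and its folds against SHAM were 0.75 for PBS, 4.33 for HG and 0.23 for HG+ORG. Acyp1, a small acylphosphatase, was the remaining named gene on the higher side, at 3.21, 3.63 and 4.37 log2 CPM in injured horns, against 2.94, 3.16 and 3.36 in SHAM horns. It exceeded each SHAM horn in 14 of 17 injured horns, among them 5 of 5 PBS horns. The fit gave a log2 fold of 0.62 (SE 0.17, unadjusted p = 0.00107), and by an exact permutation rank-sum test its unadjusted p of 0.000376 was the smallest of any gene, shared with 2 others (adjusted p = 0.702).

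On the lower side folds were small, apart from genes that 1 SHAM horn carried. Plp2, a small proteolipid of cell membranes, was at 5.40, 5.99 and 6.30 log2 CPM in injured horns, against 6.05, 6.23 and 6.87 in SHAM horns. Below the SHAM range were 2 of 5 PBS, 4 of 6 HG and 5 of 6 HG+ORG horns, and at least 9 horns lay there for 4.2% of all genes. It had a fitted log2 fold of -0.48 (SE 0.13, unadjusted p = 0.00116). Ptgfrn, a membrane protein that binds tetraspanins, was at 7.16, 7.68 and 8.36 log2 CPM in injured horns, against 7.93, 8.01 and 8.80 in SHAM horns, with 13 horns below the SHAM range, where at least 12 did so for 0.621% of all genes, and a fitted log2 fold of -0.55 (SE 0.17). Lrrc8b, a subunit of volume-regulated chloride channels, was at 4.20, 5.01 and 5.68 log2 CPM in injured horns, against 5.31, 5.57 and 6.45 in SHAM horns. It too was below the SHAM range in 13 of 17 horns, with a fitted log2 fold of -0.59 (SE 0.18) and -0.38 without SHAM replicate 3. Mcmbp, which binds the MCM helicase of DNA replication, was at 6.04, 6.47 and 6.86 log2 CPM in injured horns, against 6.63, 6.72 and 6.97 in SHAM horns. With 14 injured horns below the SHAM range, among them 6 of 6 HG horns, it stood apart from most genes, as at least 14 did so for 0.069% of all genes, and its fitted log2 fold was -0.29 (SE 0.10, unadjusted p = 0.00666).

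The largest folds on the lower side rested on SHAM replicate 3. Abcb1b, a drug efflux pump, was at 7.95 in that horn and at most 2.73 in the other SHAM horns, and at 0.30, 2.22 and 5.78 in injured horns. Its fitted log2 fold was -2.46 (SE 0.81) with all horns and 0.99 without SHAM replicate 3. Lrat, which stores retinol as esters, had -2.12 (SE 0.71) and 0.56, Akr1c18, which inactivates progesterone, had -2.10 (SE 0.96) and 0.71, and Tmprss11b, a serine protease of surface epithelia, had -2.05 (SE 0.92) and -0.28. In 3 of these 4 genes the direction therefore turned without SHAM replicate 3. HG+ORG replicate 21 had the most reads of Abcb1b, Lrat and Akr1c18 among injured horns (499, 315 and 281). Without HG+ORG replicate 21 their fitted log2 folds were -3.11, -2.50 and -3.28, further below 0.

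Cholesterol synthesis genes had fitted folds on the lower side in injured horns. Of 14 members 14 had a fitted fold below 0, and 4 had an unadjusted p under 0.05, where 1.52% of all genes did. The median log2 fold was -0.71. The count was 13 of 14 with the smooth muscle covariate, where 1.9% of all genes were lower, and 12 without HG replicate 13, but 0 without SHAM replicate 4, where the median was -0.18. That horn had the highest score, 7.62, and by score 7 of 17 injured horns were below the SHAM range and 10 within it. Cyp51, a demethylase of the pathway, was at 4.90, 6.53 and 7.84 log2 CPM in injured horns, against 6.97, 7.19 and 8.22 in SHAM horns. It was below the SHAM range in 4 of 5 PBS, 4 of 6 HG and 5 of 6 HG+ORG horns. The fit gave a log2 fold of -0.73 (SE 0.31, unadjusted p = 0.027). Hmgcs1, which makes HMG-CoA, an early precursor, was also below the SHAM range in 13 of 17 horns, at 5.15, 6.49 and 7.84 log2 CPM in injured horns, against 6.75, 6.95 and 8.26 in SHAM horns. Srebf2, the transcription factor that switches the pathway on, had a fitted log2 fold of -0.57 (SE 0.22, unadjusted p = 0.0145).

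The medians of glycolysis and hypoxia genes moved toward or past 0 without SHAM replicate 3. The glycolysis median was -0.35 over 14 genes, -0.04 without that horn and -0.47 without HG+ORG replicate 18. That of 12 hypoxia genes was -0.52, 0.45 without SHAM replicate 3 and -0.77 without HG+ORG replicate 21. Without SHAM replicate 3 and HG+ORG replicate 18 together the glycolysis median was -0.20, with 12 of 14 folds below 0. By score 11 of 17 injured horns were below the SHAM range for glycolysis (4 PBS, 4 HG and 3 HG+ORG horns), and 6 for hypoxia. SHAM replicate 3 had the highest SHAM score for glycolysis, 8.22, so the low end of that range did not rest on it. Pgam1, a glycolytic mutase, was at 4.53, 4.96 and 6.08 log2 CPM in injured horns, against 5.28, 5.53 and 6.14 in SHAM horns. It was below the SHAM range in 13 of 17 injured horns and had a fitted log2 fold of -0.56 (SE 0.19, unadjusted p = 0.00807), or -0.45 without SHAM replicate 3.

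Epithelial and dividing-cell genes had folds below 0 in each member, none under 0.05 by edgeR with all horns. The median was -0.37 over 16 epithelial genes (-0.21 without SHAM replicate 3), -0.54 over 16 cell cycle genes (-0.35 without SHAM replicate 4) and -0.39 over 16 replication genes (-0.61 without SHAM replicate 3). limma-voom, which gave horns unequal weights, had 15 of 16 cell cycle and 16 of 16 replication genes lower at an unadjusted p under 0.05, where 10.0% of all genes were. Epcam, an adhesion molecule of epithelium, was at 7.13, 10.31 and 11.05 log2 CPM in injured horns, against 10.05, 10.74 and 11.43 in SHAM horns, with 6 injured horns below the SHAM range and a fitted log2 fold of -0.49 (SE 0.31), or -0.31 without SHAM replicate 3. Mki67, a marker of dividing cells, was at 2.00, 7.04 and 9.00 log2 CPM in injured horns, against 0.62, 8.15 and 8.94 in SHAM horns, and the lowest level of all 23 horns was that of SHAM replicate 3. It had a fitted log2 fold of -0.65 (SE 0.67, unadjusted p = 0.343).

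Hormone receptors and genes of implantation overlapped between injured and SHAM horns. Esr1, the estrogen receptor on which uterine growth depends, was at 3.83, 8.32 and 8.76 log2 CPM in injured horns, against 8.16, 8.32 and 8.89 in SHAM horns, with a fitted log2 fold of -0.12 (SE 0.32), and its lowest level was in HG+ORG replicate 18. Pgr, the progesterone receptor, was at 2.59, 8.28 and 10.11 log2 CPM in injured horns, against 5.64, 8.08 and 9.29 in SHAM horns and had 0.12 (SE 0.60), or -0.10 without SHAM replicate 3. Foxa2, a factor of uterine glands, had 0.49 (SE 0.46), and Lif, the cytokine that starts implantation, had -0.30 (SE 0.82), or 0.40 without SHAM replicate 3. Both turn direction by limma-voom, at -0.27 and 0.31. The stromal genes Hoxa10, a homeobox gene needed for implantation, and Igf1, a growth factor of the stroma, had 2.01 (SE 1.06) and 1.96 (SE 0.97), with -0.22 and -0.38 by limma-voom. Adipoq, a hormone of fat cells, was at -2.66, -1.44 and 10.17 log2 CPM in injured horns, against -2.66, 4.58 and 7.66 in SHAM horns, a fitted log2 fold of 0.19 (SE 1.80) that was -2.71 without HG replicate 12.

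The 3 groups pooled here were also set side by side, each against the same SHAM horns. By edgeR 0 genes passed for PBS (0.0%), HG (0.0%) or HG+ORG (0.0%). At an unadjusted p under 0.05, 255 genes were higher (1.47%) and 115 lower (0.661%) for PBS, 1542 (8.87%) and 372 (2.14%) for HG, and 1392 (8.0%) and 319 (1.83%) for HG+ORG. Among the 3 groups themselves 0 of 17394 genes passed (0.0%), with 1327 at an unadjusted p under 0.05 (7.63%), or 1492 of 17309 without replicate 18 (8.62%). Since the 3 contrasts share the SHAM horns, only their values are given.

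Jchain had log2 folds against SHAM of 5.13 for PBS, 5.92 for HG and 5.46 for HG+ORG, and Igkc of 4.39 for PBS, 6.06 for HG and 5.43 for HG+ORG. Dbp had 1.06 for PBS, 1.63 for HG and 0.77 for HG+ORG, and Tef 1.33 for PBS, 1.92 for HG and 0.93 for HG+ORG. PBS had the smallest fold of the 3 for both antibody genes, and HG+ORG for both clock genes. Mmp12 had 6.09 for PBS, 5.87 for HG and 11.54 for HG+ORG, where HG+ORG holds replicate 18. Muscle and stromal genes were less even: Acta2 had 2.98 for PBS, 4.33 for HG and 1.62 for HG+ORG, and Hoxa10 1.02 for PBS, 3.15 for HG and -0.20 for HG+ORG. Cyp51 had -0.72 for PBS, -0.43 for HG and -1.10 for HG+ORG. Whether any of these sizes differ between the 3 groups was tested gene by gene, and the smallest adjusted p of the genes in this paragraph was 0.371 by edgeR.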

How the data were processed

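The authors deposited 1 table of raw counts, whole numbers of reads per gene in each of 23 libraries. The submitters' processing notes name HISAT2 2.2.1, SAMtools 1.21, featureCounts 2.0.3, Trimmomatic 0.39, DESeq2 1.42.1, R 4.3.1, FastQC 0.11.9 and MultiQC 1.27.1, with build GRCm39. The kit marks strand, per the labels' protocols, but settings of the counting are not stated, so antisense, overlapping and near-identical genes may share reads. Reads of human organoid cells cannot be told apart from mouse reads. All 18682 features had 10 or more counts in 3 or more libraries, and 18341 identifiers matched a symbol.

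edgeR 4.0.16 (R 4.3.3) was run on the counts with TMM factors and filterByExpr, which removed 1288 features, as injured against SHAM with no covariate and Benjamini-Hochberg adjustment at 0.05. A standard error is the size of the log2 fold divided by the root of F. A fit of 4 groups gave each group against SHAM and the test among injured groups. Alternatives were DESeq2 1.42.0, limma 3.58.1 with voom and quality weights, other scalings and filters, the smooth muscle score as covariate, each library left out, and an exact permutation rank-sum test over 100947 splits. The fits were also run on simulated data, whose outcome is not reported here, so the power behind 0 calls is not given. Of 743 members of 61 gene lists 703 were tested, and a list is described by counts and its median without a test. A list count on the higher side stands against 7.65% of all genes by edgeR. That share was 2.73% with the smooth muscle covariate and 8.21% by limma-voom.

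The contrast and the lists were chosen with earlier results of these data known. Genes were named by a rule: up to 10 past the threshold in each direction (none passed), otherwise the 6 of smallest p, then the 4 of largest fold in each direction among those under 0.05 whose fold kept its sign without HG+ORG replicate 18, genes whose groups did not overlap (none), all of these with an established symbol and averaging 1 CPM or more, 15 fixed genes, and members of the lists.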

Additional observations from a re-analysis of the deposited data

Results flagged for a closer look

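A horn was marked where its gap to the nearest horn of its group was large against the range of the group. Of 380 groups of values examined, over the named genes and the list scores, 38 were marked (10.0%), where chance marks about 1 in 20. Values are log2 CPM, and a score is the mean log2 CPM of a list.

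HG+ORG replicate 18 was marked 10 times. It was high in Cd5l (9.32), Mmp3 (9.16) and Tgfb1 (8.09) and in the scores of glucocorticoid-induced genes (6.73), nuclear respiratory chain genes (7.92) and oxidative stress response (7.21), and low in Esr1 (3.83) and Epcam (7.13) and in the scores of luminal and glandular epithelium (5.91) and squamous and keratinising cells (-0.70). HG+ORG replicate 21 was high in the scores of nerve and Schwann cells (3.19), mesothelium (2.21) and implantation regulators (5.68). HG replicate 15 was low in Tgfb1 (3.37) and in the score of growth factors (2.98). PBS replicate 7 was high in Adipoq (5.44) and in the scores of adipocytes (5.37) and glucocorticoid-induced genes (5.72), PBS replicate 8 low in the score of estrogen-induced uterine genes (6.60), and PBS replicate 10 high in the score of cholesterol synthesis (6.35).

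SHAM replicate 3 was marked 12 times. It was high in Lrrc8b (6.45), Abcb1b (7.95) and Lrat (7.39) and in the scores of estrogen-induced uterine genes (9.50), glycolysis (8.22), hypoxia response (7.78) and arginine and polyamines (6.44), and low in Mki67 (0.62) and in the scores of cell cycle (0.27), DNA replication (2.97), serine and folate one-carbon enzymes (3.35) and ribosome biogenesis and Myc targets (5.58). SHAM replicate 4 was low in Jchain (-2.66) and in the scores of matrix proteases and inhibitors (2.24) and glucocorticoid-induced genes (3.05) and high in the scores of nuclear respiratory chain genes (7.92) and proteasome (7.50). SHAM replicate 2 was high in the score of inflammatory cytokines and chemokines (3.03).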

How the results depend on the processing

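By edgeR 0 genes passed in each alternative: other scaling, filters and dispersion, the muscle covariate, 4 groups, each horn left out, SHAM replicates 5 and 6 summed, and SHAM replicate 3 and HG+ORG replicate 18 left out together (the last 2, and DESeq2 without each horn, were chosen after seeing the data). limma-voom and the exact permutation rank-sum test also called 0, with a smallest adjusted p for the rank-sum test of 0.702, or 0.82 without replicate 18. DESeq2 called 6, or 5 without HG+ORG replicate 18, and from 4 to 80 without each horn in turn, with 80 without PBS replicate 8, 68 without PBS replicate 9, 19 and 17 without HG+ORG replicates 22 and 19, 12 without SHAM replicate 2 and 10 without HG replicate 12. Genes higher at an unadjusted p under 0.05 ran from 750 without SHAM replicate 4 to 1536 without PBS replicate 9, and lower genes from 139 to 440. No paired analysis was possible because the replicate numbers run over all 23 horns and no group shares a number with another. Depth limits Iglc2, Myocd, Cpa3 and other genes with few SHAM reads.

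Some log2 folds turned direction, and the cause was not tested. By limma-voom the values were -0.094 for Col1a1, -0.049 for Col3a1, -0.38 for Igf1, -0.49 for Pgr, -0.27 for Foxa2, 0.31 for Lif, -0.22 for Hoxa10 and -4.17 for Adipoq. With the muscle covariate they were 0.077 for Vegfa and -0.52 for Myh11, which is itself part of the covariate. Adipoq had -2.16 as the mean of the 3 groups. Without SHAM replicate 3 and HG+ORG replicate 18, Abcb1b had 0.79, Lrat 0.61, Akr1c18 0.64, Vegfa 0.43, Esr1 0.071, Pgr -0.0067 and Lif 0.43. Over fits without 1 horn, edgeR's folds ran over -3.11 to 0.99 for Abcb1b, -2.50 to 0.56 for Lrat, -3.28 to 0.71 for Akr1c18, -0.31 to 0.52 for Vegfa, -0.10 to 0.42 for Pgr, -0.89 to 0.40 for Lif, -0.17 to -0.01 for Esr1 and -2.71 to 0.94 for Adipoq, and those of DESeq2 over -3.42 to 0.32 for Abcb1b, -2.76 to 0.54 for Lrat, -0.31 to 0.50 for Vegfa, -0.11 to 0.41 for Pgr and -2.71 to 0.28 for Adipoq. List medians kept their sign under the other scaling, except that of steroid receptors, which was near 0. By limma-voom other medians given here also turned, to 0.21 for hypoxia, 0.092 for estrogen-induced, 0.12 for interferon-stimulated, -0.57 for uterine gland, -0.27 for prostaglandin and -0.078 for retinoic acid genes.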

Other observations

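Genes encoded in mitochondria, which make subunits of the respiratory chain, had a fitted fold above 0 in 13 of 13 members, with a median log2 fold of 0.63, and 0 were under an unadjusted p of 0.05 by edgeR (6 without SHAM replicate 2). By limma-voom 11 of 13 were higher at that level, with a median of 0.82, where 8.21% of all genes were. Their score was 6.45, 8.08 and 9.48 in injured horns, against 6.57, 7.49 and 8.64 in SHAM horns, and 4 of 17 injured horns were above the SHAM range. The nuclear genes of the same chain had a median of -0.07. Ciliated and oviduct genes had a fold above 0 in 7 of 7 members, with a median of 0.55 and 0 under 0.05.

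Interferon-stimulated genes, which mark a response to viruses or to double-stranded RNA, had a median of -0.14, with 4 of 18 folds above 0 and 0 under 0.05 in either direction. Retinoic acid genes had a median of 0.10, prostaglandin genes 0.13 and uterine gland genes 0.02, each with 0 members under 0.05. Estrogen-induced genes had -0.37, 0.12 without SHAM replicate 3 and -0.49 without HG+ORG replicate 21. Immediate early genes, which respond within minutes to a stimulus, had a median of 0.70 over 13 genes and 0.34 without HG+ORG replicate 18, with 2 under 0.05 and 3 folds below 0, and limma-voom had 4 higher. Egr3 and Nr4a1 had fitted log2 folds of 2.14 (SE 0.75) and 1.34 (SE 0.53), and 10 and 8 injured horns were above the SHAM range. At least 9 horns were above it for 7.25% of all genes, and 8 or more for a larger share. Selenoi, which makes phosphatidylethanolamine and was chosen after its values were seen, was below the SHAM range in 15 of 17 injured horns.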
